A study of Mus musculus with 3 samples.

Results

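Fibroblasts of the cauda were the cells of the cauda library with at least 1000 unique molecular identifiers (UMIs, tags that count captured RNA molecules) that carried a matrix signature: Col1a1, Col1a2, Col3a1, Dcn and Lum together gave at least 250 UMIs per 10000 of the cell, at least 3 of these 5 genes were detected, and Pecam1, Ptprc, Myh11 and Krt5, markers of endothelial, immune, smooth muscle and basal cells, gave at most 2 UMIs together. The rule found 1612 cells, 43.2% of the 3734 cauda cells of that depth (exact 95% interval 41.6 to 44.8). The 3 libraries held 14845 cells in all. The same rule found 459 fibroblasts in the corpus and 152 in the caput. Untreated wild-type C57BL/6 mice of 56 days gave the epididymis, which was cut into cauda, corpus and caput with 1 library each, digested, strained, cleared of red blood cells by lysis and captured with the Singleron GEXSCOPE kit. How many animals entered each library was not given in the sources used here. With 1 library per region, region and library cannot be told apart, cells are not replicates, no test was made, and every interval below covers counting error only. Free RNA and doublets were not removed.

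Fibroblasts secrete and turn over the collagens, elastic fibres and proteoglycans of the interstitium, and in the epididymis they lie between the duct, with its muscle coat, and the vessels. Pi16 encodes peptidase inhibitor 16, and in many mouse tissues it marks a fibroblast state of the adventitia and fascia that also carries Cd55, Sema3c, Pcolce2, Mfap5 and Dpp4. Hox genes encode transcription factors that keep a record of position along the body axis in adult mesenchyme, with the higher-numbered genes of each cluster acting toward the posterior end, and in mouse Hoxa10 and Hoxa11 pattern the distal male tract.

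The 250 bases before the RefSeq transcription start (GRCm38.p6) are shown for 3 genes on which the results turn: Pi16, which divided the cells, Col6a5, which was higher in the Pi16-negative cells, and Hoxa11, which set the cauda apart from the other regions. They are written 5' to 3' on the strand of the gene. Pi16 is chr17:29318632-29318881 on the plus strand, Col6a5 is chr9:105960644-105960893 on the minus strand and Hoxa11 is chr6:52245811-52246060 on the minus strand. The Pi16 window lies inside the gene as GENCODE annotates it, at 29317680 to 29330593, and not before its first base.
Pi16: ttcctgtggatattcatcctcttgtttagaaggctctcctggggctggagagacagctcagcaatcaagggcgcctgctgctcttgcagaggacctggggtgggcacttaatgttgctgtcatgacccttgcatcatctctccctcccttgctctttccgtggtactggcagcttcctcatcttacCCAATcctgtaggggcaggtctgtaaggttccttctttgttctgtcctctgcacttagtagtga
Col6a5: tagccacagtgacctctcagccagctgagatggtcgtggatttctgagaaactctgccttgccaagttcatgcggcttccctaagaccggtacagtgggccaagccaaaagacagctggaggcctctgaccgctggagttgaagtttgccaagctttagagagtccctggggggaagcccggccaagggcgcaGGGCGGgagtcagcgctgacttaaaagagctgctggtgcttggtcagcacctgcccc
Hoxa11: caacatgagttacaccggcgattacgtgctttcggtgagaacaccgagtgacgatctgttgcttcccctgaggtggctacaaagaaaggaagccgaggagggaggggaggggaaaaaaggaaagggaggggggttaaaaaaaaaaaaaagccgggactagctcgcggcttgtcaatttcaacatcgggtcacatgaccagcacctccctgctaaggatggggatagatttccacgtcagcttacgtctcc
Capitals mark matches to 4 motifs searched on both strands (the TATA box TATAAA, the CCAAT box, the Sp1 box GGGCGG and the AP-1 site TGANTCA), a set chosen after the sequences had been seen. The match in Pi16 is CCAAT, starting 64 bases before the start, and that in Col6a5 is GGGCGG, starting 57 bases before it. Of 32851 promoters of the same length in the table, 12.4% held the TATA box, 33.9% the CCAAT box, 32.7% the Sp1 box and 6.75% the AP-1 site. The Hoxa11 window held none of these letters, and it lies within Hoxa11os, an antisense transcript at chromosome 6, 52244393 to 52249799, on the plus strand.

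The genes of the rule are a description of how the cells were chosen. Among the members their sum had a median of 712 UMIs per 10000 (quartiles 445 and 1000.0), against 68.8 per 10000 over all other cauda cells. All 5 genes were seen in 1215 members. Just inside the threshold, 122 cells at 250 to 300 per 10000 had a median of 1325 UMIs, with Pi16 seen in 23.8% and Pdgfra in 16.4% of them. Just outside it, 131 cells at 200 to 250 that met the other conditions had a median of 1374 UMIs, with Pi16 in 16.8% and Pdgfra in 21.4%. The members near the threshold were shallow, since the 719 members at 500 to 1000 per 10000 had a median of 4219 UMIs. The limit on other cell types kept out 46 further cauda cells.

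The name was checked with Pdgfra, the receptor that marks fibroblasts, Dcn and Col1a1 being part of the rule. CPM, the UMIs of a gene scaled to 1e+06 UMIs of the class, put Pdgfra at 274.9 CPM in cauda fibroblasts, against 25.5 CPM in the rest of the cauda cells. With every cell thinned at random to 1000 UMIs, Pdgfra was seen in 20.3% of cauda fibroblasts, against 2.88% of 660 immune-rule cells and 0.950% of 421 epithelial-rule cells of the same library. These comparison cells had at least 3 of 5 immune or epithelial markers and less than the matrix threshold. Without thinning the 3 shares were 52.7%, 6.67% and 5.46%, at median depths of 3655, 3472.5 and 7239 UMIs. Cd34, a surface glycoprotein of fibroblasts and of vessels, was seen in 31.5% of thinned cauda fibroblasts, against 2.27% of immune-rule and 2.14% of epithelial-rule cells. Both genes were well above the share that free RNA gave in cells that should lack them.

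**Figure D1:**
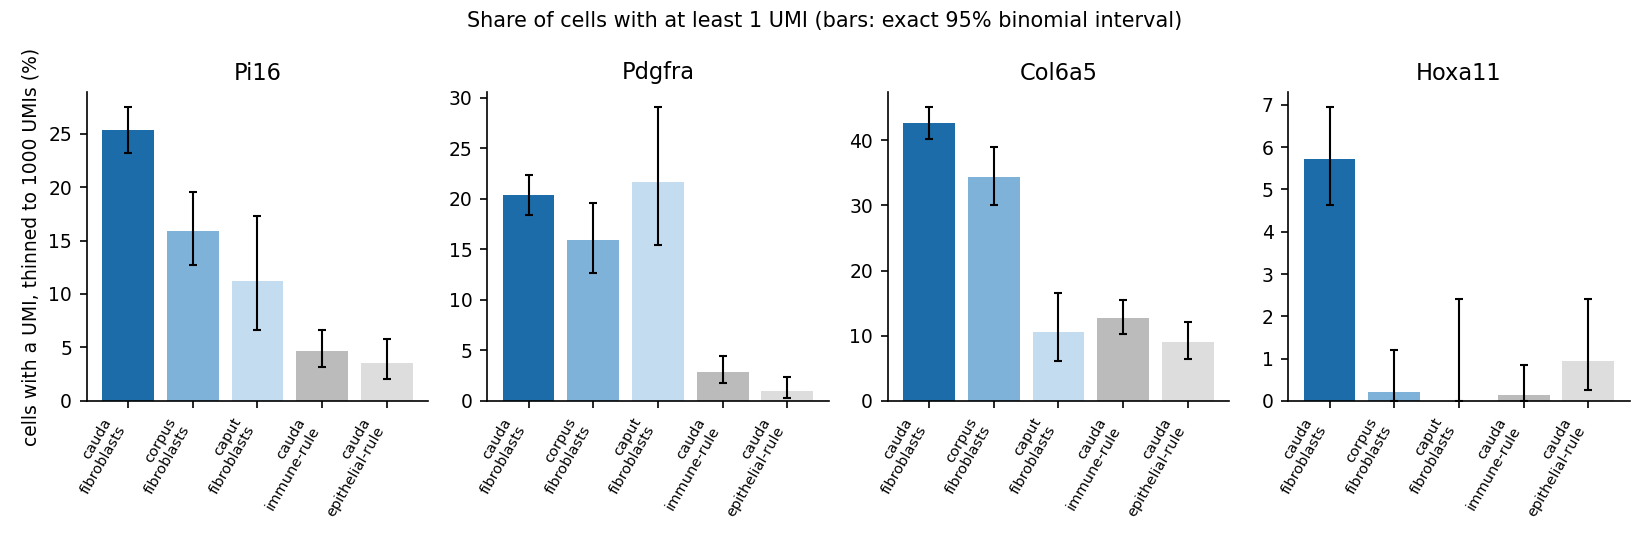
Share of cells (percent) with at least 1 UMI of Pi16, Pdgfra, Col6a5 and Hoxa11 after thinning every cell to 1000 UMIs, in fibroblasts of the cauda, corpus and caput and in cauda cells chosen by immune or epithelial markers; bars are exact 95% binomial intervals. Pi16 was seen in 25.3% of cauda fibroblasts and in 15.9% and 11.2% of corpus and caput fibroblasts, and Hoxa11 in 5.71% of cauda fibroblasts.

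RNA of other cells was present in the members. The 10 macrophage markers summed to 1453 CPM in cauda fibroblasts, 454 CPM in corpus and 287 CPM in caput fibroblasts, with none of the 10 at 0 in any region, and to 5205, 1258 and 366 CPM in the other cells of those libraries. The 11 principal-cell markers summed to 7214 CPM in cauda fibroblasts, against 25973 CPM in the other cauda cells, and the 5 erythroid markers to 4193 CPM, against 18290 CPM. Adipocyte markers were near 0, with Adipoq, Plin4, Cidec and Cfd at 0 and the list of 5 at 0.284 CPM. Among 1612 members, 605 had at most 2 UMIs of the endothelial, lymphatic, macrophage, lymphocyte, mural, basal and Schwann cell markers together. In these 605 the macrophage markers summed to 227 CPM. This limit on other cell types, used again below, did not count principal-cell or erythroid markers. The largest cell-to-cell spreads, as variance over mean of the thinned counts among 2655 genes, were also in part those of other cells: the mitochondrial ribosomal RNA mt-Rnr2 and 4 globin genes led, and Col1a2 and Col1a1, genes of the rule, followed. Col6a5 was the ninth of these genes, with a ratio of variance to mean of 7.90, and Pi16 was at rank 37 with 2.98.

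Pi16 was seen in 748 of the 1612 cauda fibroblasts, 46.4% (43.9 to 48.9). The Pi16-negative cells numbered 864, and 287 cells had 1 UMI, 126 had 2, 86 had 3 and 249 had 4 or more, up to 130 in a single cell. Detection moved with depth: the median was 4898 UMIs in Pi16-positive and 2648 UMIs in Pi16-negative cells. In the depth range up to 2542 UMIs, there were 150 positive and 423 negative cells, while above 7935 UMIs there were 150 positive and 49 negative cells. The Pi16-negative class can thus hold shallow cells in which Pi16 was missed.

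With every cell thinned to 1000 UMIs, Pi16 was seen in 25.3% (23.2 to 27.5) of cauda, 15.9% (12.7 to 19.6) of corpus and 11.2% (6.65 to 17.3) of caput fibroblasts. It was seen in 4.70% (3.21 to 6.60) of immune-rule and 3.56% (2.01 to 5.81) of epithelial-rule cauda cells. The cauda fibroblast share was thus above both the background of its own library and the shares of the other regions, beyond the counting intervals, while the corpus and caput intervals overlapped. Without thinning the shares were 46.4% in cauda, 32.9% in corpus and 29.6% in caput fibroblasts. The unthinned share also differed by matrix RNA. At 250 to 300 matrix UMIs per 10000 it was 23.8% in cauda and 32.8% in corpus cells (median depths 1325 and 3163 UMIs). At 500 to 1000 it was 47.4% and 32.0%. The median matrix sum was 712, 485 and 367 per 10000 in cauda, corpus and caput fibroblasts. The part of matrix RNA in the shares was not tested. As a level, Pi16 stood at 549.8 CPM (533 to 567) in cauda, 256 CPM (233 to 280) in corpus and 144 CPM (116 to 177) in caput fibroblasts, the 3 intervals apart. The Pi16 gene is at chromosome 17, 29317680 to 29330593, on the plus strand (GENCODE M21, GRCm38).

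Pi16-positive cauda fibroblasts carried more Krtdap, Sfrp4, Pcolce2 and Cd55, and Pi16-negative ones more Col6a5, a chain of collagen VI, and more Osr1, Gata6 and Ebf2, which encode transcription factors. To be called higher or lower, a gene needed at least 100 UMIs in both classes together, a CPM at least 2 times that of the other class, and an exact conditional 95% interval of that ratio which left out 1.5. Of 6471 genes, 94 (1.45%) were higher and 67 (1.04%) lower in Pi16-positive cells. The median log2 ratio over all 6471 was 0.04. With cells left out that held over 2 UMIs of other cell types, 34 genes were higher and 22 lower, and with every cell thinned to 1000 UMIs, 16 were higher and 16 lower. Both settings leave fewer UMIs, so fewer genes can reach the 100 UMIs of the rule. These counts therefore cannot be set beside 94 and 67 as a measure of lost differences.

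Krtdap, a small secreted protein first known from keratinocytes, had 104 CPM in Pi16-positive cells, against 16.3 CPM in Pi16-negative cells, a ratio of 6.40 (4.74 to 8.82). It was seen in 20.9% of Pi16-positive and 3.94% of Pi16-negative cells. Sfrp4, a secreted binder of Wnt ligands, had 119.6 CPM in Pi16-positive and 19.7 CPM in Pi16-negative cells, a ratio of 6.07 (4.61 to 8.11). Both genes were far lower outside the fibroblasts, at 5.40 CPM for Krtdap and 4.34 CPM for Sfrp4 in the rest of the cauda. Tek, the angiopoietin receptor best known from endothelium, had 32.7 CPM in Pi16-positive and 5.44 CPM in Pi16-negative cells, a ratio of 6.01 (3.57 to 10.8). Cdh5, the endothelial cadherin, which the rule did not limit, had 29.0 CPM in Pi16-positive and 16.7 CPM in Pi16-negative cells, against 6.46 CPM in the rest of the cauda. The 9 endothelial markers summed to 127 CPM in Pi16-positive and 91.1 CPM in Pi16-negative cells, with Cldn5 at 0 in the Pi16-positive ones, and their part in the Tek value was not tested.

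Pcolce2, which enhances the trimming of procollagen, had 215 CPM in Pi16-positive and 47.6 CPM in Pi16-negative cells, a ratio of 4.52 (3.78 to 5.44). Fgf18, a secreted growth factor, had 68.8 CPM in Pi16-positive and 18.0 CPM in Pi16-negative cells, a ratio of 3.82 (2.84 to 5.23). Myoc, the secreted glycoprotein myocilin, had 49.1 CPM in Pi16-positive and 13.9 CPM in Pi16-negative cells, a ratio of 3.52 (2.51 to 5.05). The same ranking also held Pamr1 at 5.12, Mustn1 and Olfm2 at 3.66 and Stmn2 at 3.72. Col8a1, a short-chain collagen, had a ratio of 4.59, but 70 of its 294 UMIs in Pi16-positive cells were in 1 cell. Prc1, which bundles microtubules in dividing cells, had a ratio of 3.89 with 46 of its 92 UMIs in 1 cell, and its direction turned without the 5% of members with the most UMIs.

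Genes of the Pi16 adventitial state were higher with Pi16. Of 31 listed genes 23 had enough UMIs with Pi16 itself set aside, 11 passed the rule as higher, 0 as lower, and all 23 ratios were above 1, with a median log2 ratio of 0.95. The list summed to 13597 CPM in Pi16-positive and 7325 CPM in Pi16-negative cells, against 1730 CPM in the rest of the cauda. Cd55, which protects cells from complement, had 199 CPM in Pi16-positive and 76.8 CPM in Pi16-negative cells (ratio 2.59, 2.23 to 3.01). Ackr3, a receptor that removes chemokine, had 216 CPM in Pi16-positive and 86.3 CPM in Pi16-negative cells (ratio 2.50, 2.17 to 2.88). Anxa3, Sema3c, Adgrd1, Emilin2, Fbn1, Gfpt2, Igfbp6 and Mfap5 passed with ratios of 2.48, 2.40, 2.42, 2.30, 2.28, 2.18, 2.14 and 2.03. Ly6a and Clec3b did not reach the ratio, with values of 1.40 and 1.74. Dpp4, a surface peptidase used to sort this state in other mouse tissues, stood at 16.4 CPM in Pi16-positive and 14.3 CPM in Pi16-negative cells, below the 78.7 CPM of the other cauda cells, and thinned it was seen in 1.61% of fibroblasts and 8.31% of epithelial-rule cells. At that share Dpp4 was not detectable above background in the fibroblasts.

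Of 19 elastic fibre genes with enough UMIs, 5 passed as higher and 0 as lower, with a median log2 ratio of 0.29. The shares over all 6471 genes were 1.45% higher and 1.04% lower. Fbn1, Mfap5 and Emilin2 among them were also on the adventitial list, which leaves Eln and Fbln2. Eln, elastin itself, had 350.0 CPM in Pi16-positive and 172 CPM in Pi16-negative cells, and Fbln2 had 217 and 103 CPM in the same order. Mfap2 went the other way without reaching the rule, at 915 CPM in Pi16-positive and 1136 CPM in Pi16-negative cells. Of 20 genes of Wnt, BMP and TGF-beta signalling, 5 were higher (Wnt5a, Sfrp4, Dkk3, Inhba and Fstl1) and 1 lower (Bmper, which binds BMPs). Fstl1, a secreted glycoprotein, had 976 CPM in Pi16-positive and 430.0 CPM in Pi16-negative cells, a ratio of 2.27 (2.13 to 2.42). Adamts5 and Timp3, a protease of proteoglycans and a protease inhibitor, had ratios of 2.23 and 3.01, and Has2, which makes hyaluronan, 3.38. Cilp, a cartilage matrix protein, had a ratio of 3.38, with 101 of its 607 UMIs in Pi16-positive cells in 1 cell.

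**Figure D2:**
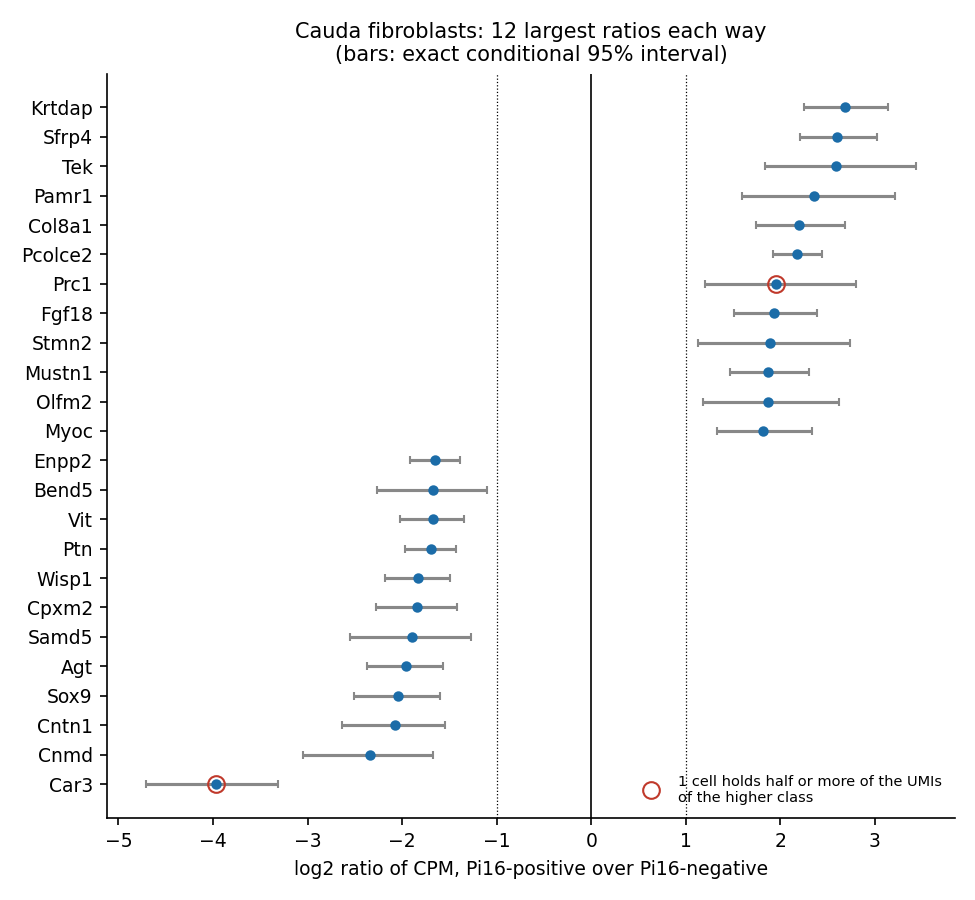
Log2 ratio of CPM, Pi16-positive over Pi16-negative cauda fibroblasts, for the 12 genes with the largest ratio in each direction by the naming rule; horizontal bars are exact conditional 95% intervals, dotted lines mark a ratio of 2 either way, and open circles mark genes where 1 cell held at least 50% of the UMIs of the higher class. Krtdap, Sfrp4 and Tek lead the higher genes, and Car3, whose value rests on 1 cell, and Cnmd the lower.

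Col6a5, one of the genes lower in Pi16-positive cells, had 5338 UMIs and 1303 CPM (1268 to 1338) in Pi16-positive cells, against 10512 UMIs and 3574 CPM (3506 to 3642) in Pi16-negative cells, a log2 ratio of -1.46. It was seen in 50.9% of Pi16-positive and 64.4% of Pi16-negative cells although the Pi16-positive ones were deeper. Thinned, it was seen in 21.6% (17.7 to 25.9) of cells with a Pi16 UMI and in 49.8% (47.0 to 52.7) of cells without. Thinned shares of 12.7% in immune-rule and 9.03% in epithelial-rule cells give the background in the library. Col6a6, its neighbour on chromosome 9 (105687809 to 105828160, with Col6a5 at 105856078 to 105960643, both on the minus strand), had 35.4 CPM in Pi16-positive and 92.1 CPM in Pi16-negative cells. The chains Col6a1 and Col6a2 did not share the direction, with 1465 CPM in Pi16-positive and 1157 CPM in Pi16-negative cells for Col6a1, and 1268 and 959 CPM for Col6a2 in the same order. Col6a5 and Col6a6 are related in sequence, so reads shared between them would be uncertain.

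Of 16 non-fibrillar collagens with enough UMIs, 1 was higher (Col8a1) and 3 lower (Col4a6, Col6a5 and Col6a6). Over all 6471 genes 1.45% were higher and 1.04% lower. Of 4 fibrillar collagens 0 passed in either direction, which is near that background. Of 30 mesenchymal regulators 0 were higher and 4 lower, while 22 had a ratio above 1 and the median log2 ratio was 0.15. Sox9, the regulator of cartilage matrix and ducts, had 13.7 CPM in Pi16-positive and 56.4 CPM in Pi16-negative cells (log2 ratio -2.05). The other cauda cells had 47.6 CPM, and thinned Sox9 was seen in 4.40% of Pi16-negative fibroblasts, 7.36% of epithelial-rule and 0.909% of immune-rule cells, so that its level in the fibroblasts was not above that of the epithelium. Osr1, a zinc finger factor of urogenital mesenchyme, had 49.1 CPM in Pi16-positive and 120.7 CPM in Pi16-negative cells (log2 ratio -1.30), against 17.8 CPM in the other cauda cells. Gata6 and Ebf2, also transcription factors, had log2 ratios of -1.22 and -1.59. Klf4 had 1973 CPM in Pi16-positive and 1949 CPM in Pi16-negative cells.

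Several other lower genes encode secreted proteins. Ptn, the growth factor pleiotrophin, had 40.5 CPM in Pi16-positive and 131 CPM in Pi16-negative cells (log2 ratio -1.70), and Enpp2, the secreted enzyme autotaxin, had 42.2 and 132 CPM in the same order (log2 ratio -1.65). Agt, the precursor of angiotensin, had 17.8 CPM in Pi16-positive and 69.3 CPM in Pi16-negative cells. Wisp1, a matricellular protein, and Cnmd, chondromodulin, had log2 ratios of -1.83 and -2.34. Igfbp3, which binds insulin-like growth factors, had 131 CPM in Pi16-positive and 305 CPM in Pi16-negative cells. Cntn1, Samd5, Cpxm2, Vit and Bend5 completed the ranking with log2 ratios between -2.08 and -1.67. Car3 led it at -3.97, but 196 of its 225 UMIs in Pi16-negative cells were in 1 cell, and without the top cell of each class the value was -1.34.

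Of 20 genes of the parenchymal Col15a1 state, 1 was higher (Ccl11) and 3 lower (Apoe, Ptn and Vcam1), with a median log2 ratio of -0.11. All 6471 genes gave 1.45% higher and 1.04% lower. Apoe had 1475 CPM in Pi16-positive and 3192 CPM in Pi16-negative cells, against 4442 CPM in the other cauda cells. The macrophage markers summed to 1157 CPM in Pi16-positive and 1865 CPM in Pi16-negative cells, with 9 of 9 measured markers below a ratio of 1 and none past the rule. The principal-cell markers summed to 5958 CPM in Pi16-positive and 8964 CPM in Pi16-negative cells and the erythroid ones to 3453 and 5225 CPM in the same order. The median mitochondrial share was 4.99% in Pi16-positive and 6.81% in Pi16-negative cells. RNA of other cells and depth thus moved with the split, and their part in it was not tested. In the 605 cells with at most 2 UMIs of the counted other-cell markers, Krtdap and Sfrp4 had log2 ratios of 3.20 and 2.90 and Sox9 -2.14. Pcolce2 had 1.94, Cd55 1.27, Col6a5 -1.24 and Ebf2 -1.14 there. Several other genes kept their direction but fell below a 2-fold ratio. Osr1 had -0.89, Gata6 -0.88, Col6a6 -0.87 and Enpp2 -0.64, and Mfap5 had 0.89, Fbln2 0.80, Fbn1 0.70 and Eln 0.48.

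Other genes did not reach the size rule. Pdgfra had 304 CPM in Pi16-positive and 235 CPM in Pi16-negative cells (ratio 1.30, 1.18 to 1.42), higher beyond counting error but below a ratio of 2. Of 14 Hox genes with enough UMIs, 0 passed in either direction, with a median log2 ratio of 0.13. With 1.45% higher and 1.04% lower over all genes, a count of 0 in 14 is near the background. Hoxa11 had 57.8 CPM in Pi16-positive and 50.7 CPM in Pi16-negative cells, a ratio of 1.14 (0.93 to 1.41). The interval of Hoxa11 leaves out a ratio of 1.5. Among 39 genes induced by tissue dissociation 0 were higher and 1 lower (Hspb1), with a median log2 ratio of -0.26.

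Grading the cells by their Pi16 UMIs after thinning compared cells of the same UMI total, 1000 each. The thinned groups held 1204 cells with 0, 272 with 1, 72 with 2 and 64 with 3 or more Pi16 UMIs. Col6a5 fell along the 4 groups, with 2689 CPM at 0, 1206 at 1, 444 at 2 and 172 CPM at 3 or more. Cd55 had 85.5, 132, 250 and 812 CPM, and Pcolce2 83.9, 202, 306 and 750.0 CPM along the same series. Srgn, which encodes the proteoglycan serglycin and is also abundant in immune cells (seen in 44.2% of thinned immune-rule cells), had 364, 761, 1292 and 1656 CPM. Pdgfra kept close to a level, with 237, 276, 292 and 266 CPM. Penk, which encodes the opioid peptide precursor, had 2806, 2559, 2000 and 1672 CPM. The mitochondrial share of the summed UMIs was 9.04, 8.27, 6.81 and 6.37% along the series, and its part in these values was not tested.

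**Figure D3:**
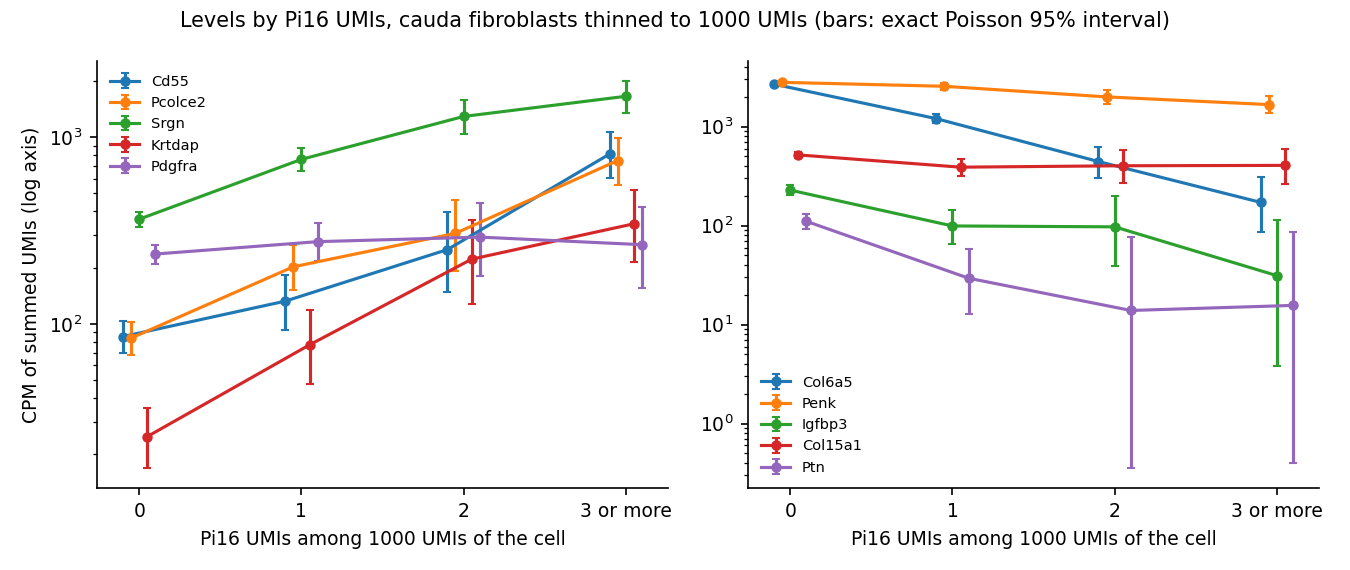
CPM of 10 genes (log axis) in cauda fibroblasts thinned to 1000 UMIs, grouped by 0, 1, 2 and 3 or more Pi16 UMIs; bars are exact Poisson 95% intervals. Cd55, Pcolce2, Srgn and Krtdap stand higher at each step up to 3 or more, where Cd55 reaches 812 CPM, Pdgfra stays between 237 and 292 CPM, and Col6a5 declines to 172 CPM.

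The corpus fibroblasts, from another library, were divided in the same way. Of 2490 corpus genes, 30 (1.2%) were higher and 39 (1.57%) lower in its 151 Pi16-positive over its 308 Pi16-negative fibroblasts. Of the 94 genes higher in the cauda, 86 had at least 20 corpus UMIs and 82 of these (95.3%) had a ratio above 1 in the corpus, against 52.0% of all 6209 genes with as many UMIs. Of the 67 lower genes 60 had as many UMIs and 53 (88.3%) had a ratio below 1, against 48.0% of all. The size rule needs 100 UMIs, and among the genes with as many, 38 of 40 higher and 23 of 23 lower ones kept the side (54.4% and 45.6% of all 2468), of which 15 and 17 passed the rule. Sfrp4 had 89.7 CPM in Pi16-positive corpus cells, against 2.73 CPM (3 UMIs) in Pi16-negative ones, a ratio of 32.9 (10.8 to 164). Col6a5 had 642 CPM in Pi16-positive and 2925 CPM in Pi16-negative corpus cells, and thinned it was seen in 9.59% (3.94 to 18.8) of corpus cells with a Pi16 UMI and in 39.1% (34.2 to 44.2) of those without. Enpp2 had 6 UMIs in Pi16-positive and 176 in Pi16-negative corpus cells.

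In the caput, with 45 Pi16-positive and 107 Pi16-negative cells, 937 genes had enough UMIs, of which 4 (0.427%) were higher and 5 (0.534%) lower. Of the cauda genes with at least 20 caput UMIs, 45 of 56 higher ones (80.4%) and 17 of 23 lower ones (73.9%) kept the side, against 50.5% and 49.5% of all 3828 genes. Col6a5 had 343 CPM in Pi16-positive and 617 CPM in Pi16-negative caput cells, and its thinned shares of 11.8% (2 of 17 cells) and 10.4% (14 of 135) did not differ beyond counting error. The number of cells limits the caput values.

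**Figure D4:**
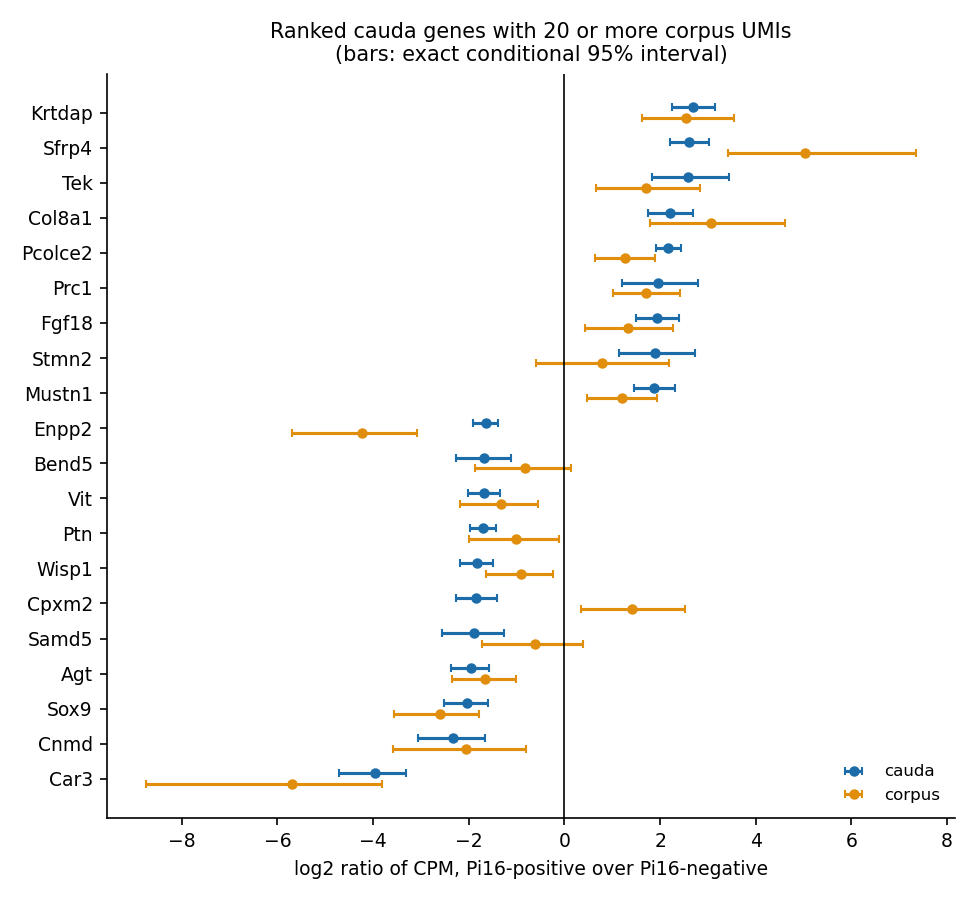
Log2 ratio of CPM, Pi16-positive over Pi16-negative fibroblasts, in the cauda (upper point of each pair) and the corpus (lower point) for the 20 ranked cauda genes with at least 20 corpus UMIs; bars are exact conditional 95% intervals. In 19 of the 20 both points lie on the same side of 0, and Cpxm2 lies at -1.84 in the cauda and 1.41 in the corpus. Car3, whose cauda value rests on 1 cell, had its 162 UMIs of Pi16-negative corpus fibroblasts in 4 of 308 cells.

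Between regions, cauda fibroblasts carried more of the posterior genes Hoxa10, Hoxa11 and Hoxd10 and more Esr1, Fst and Igfbp5 than those of the corpus and caput. They carried less Hoxa7 and Hoxc8 than both, and less Mgp, Apod and Cilp than those of the caput. Of 7254 genes, 199 (2.74%) were higher and 112 (1.54%) lower in cauda than in corpus fibroblasts. Of 6825 genes, 419 (6.14%) were higher and 233 (3.41%) lower in cauda than in caput fibroblasts. These shares are the background for the counts of listed genes between regions given below. Both comparisons share the cauda cells and each sets 1 library against another. Of the genes past the rule, 90 of 199 and 192 of 419 higher ones had a fibroblast CPM no lower than in the other cells of the cauda library, and genes were named from these. Without cells holding over 2 UMIs of other cell types, 59 genes were higher against the corpus and 213 against the caput.

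Hoxa11 had 386 UMIs and 54.8 CPM (49.5 to 60.6) in cauda, 4 UMIs and 2.22 CPM (0.605 to 5.68) in corpus and 0 UMIs in caput fibroblasts, where a count of 3 would be 4.86 CPM. The ratio to the corpus was 24.7 (9.57 to 91.2), and the cauda was at least 11.3-fold higher than that count in the caput. Thinned, Hoxa11 was seen in 5.71% of cauda fibroblasts, 0.218% of corpus fibroblasts, 0.152% of cauda immune-rule and 0.950% of cauda epithelial-rule cells. Its antisense neighbour Hoxa11os had 100 UMIs in cauda, 2 in corpus and 0 in caput fibroblasts. The 2 genes overlap, and without a statement on strand in the sources used here their reads cannot be told apart. Hoxa10, the next gene of the cluster, had 112 CPM (104 to 120.2) in cauda, 29.4 CPM (22.0 to 38.5) in corpus and no UMI in caput fibroblasts, a ratio of 3.81 (2.89 to 5.14) to the corpus and at least 23.1-fold higher than 3 UMIs in the caput.

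Among posterior genes of the other clusters, Hoxd10 was also highest in the cauda, while Hoxc9 and Hoxc10 were not. Hoxd10 had 113 UMIs and 16.1 CPM in cauda, 3 UMIs and 1.66 CPM in corpus and 0 UMIs in caput fibroblasts, a ratio of 9.65 (3.22 to 47.5) to the corpus. Hoxd11, with 97 UMIs in cauda, 2 in corpus and 0 in caput fibroblasts, had too few for the rule. Hoxc10 differed, with 31.3 CPM in cauda, 47.2 CPM in corpus and no UMI in caput fibroblasts, so that the cauda was at least 6.43-fold higher than 3 UMIs in the caput but not higher than the corpus. Hoxc9 was highest in the corpus, with 36.1 CPM in cauda, 150.9 CPM in corpus and 74.5 CPM in caput fibroblasts.

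Anterior genes ran the other way. Hoxa7 had 6.82 CPM (5.03 to 9.04) in cauda, 46.0 CPM (36.7 to 57.1) in corpus and 186 CPM (154 to 224) in caput fibroblasts. Hoxc8 had 16.8 CPM (13.9 to 20.1) in cauda, 92.6 CPM (79.1 to 108) in corpus and 405 CPM (356 to 458) in caput fibroblasts. In both genes the 3 intervals were apart. Hoxa5 had 9.80 CPM in cauda and 15.5 CPM in corpus fibroblasts, whose intervals overlapped, and 81.0 CPM in caput fibroblasts. In the cauda library Hoxa7 and Hoxc8 stood at 2.41 and 2.41 CPM outside the fibroblasts, and in the caput library at 19.0 and 20.8 CPM. Of the Hox genes with enough UMIs, 4 of 16 were higher and 4 lower against the corpus (median log2 ratio -0.28), and 5 of 17 higher and 7 lower against the caput (median -0.81). Hoxa7 lies at chromosome 6, 52214491 to 52221854, Hoxa10 at 52231197 to 52240854 and Hoxa11 at 52242106 to 52245810, all on the minus strand.

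**Figure D5:**
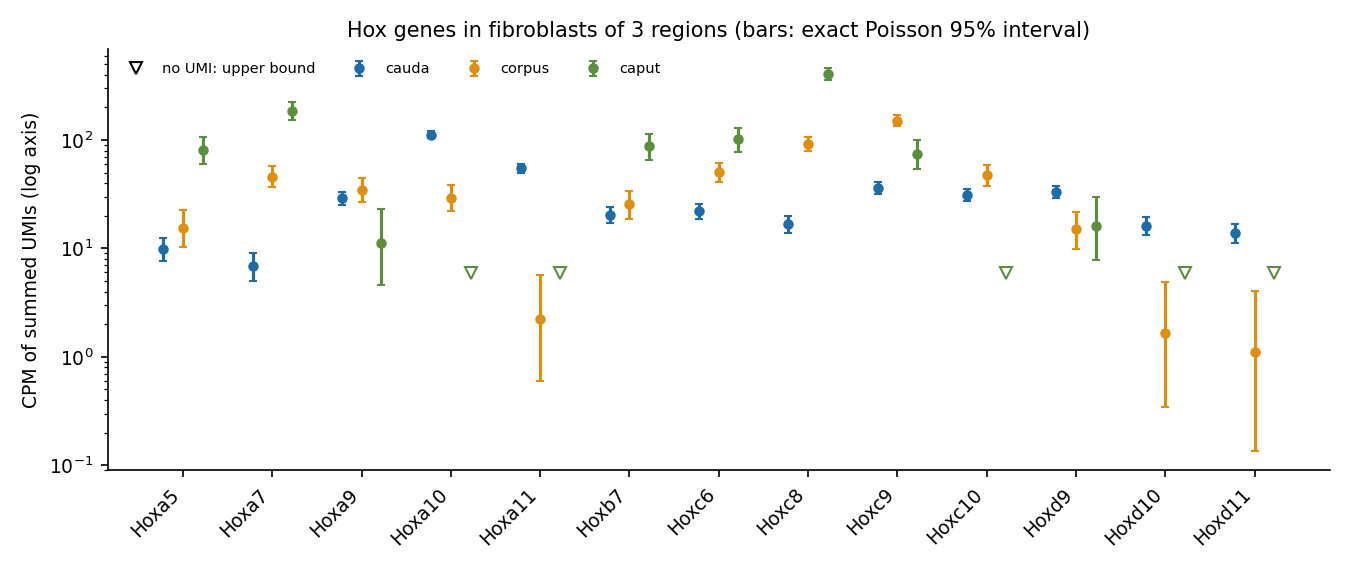
CPM (log axis) of 13 Hox genes in fibroblasts of the cauda, corpus and caput; bars are exact Poisson 95% intervals and open triangles mark the upper bound where no UMI was seen. Hoxa10 and Hoxa11 stand highest in the cauda at 112 and 54.8 CPM, while Hoxa7 and Hoxc8 stand highest in the caput at 186 and 405 CPM.

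Esr1, Fst, Igfbp5 and Kdr were higher in cauda than in corpus fibroblasts. Of 12 listed genes of steroid receptors, enzymes and targets with enough UMIs, 1 (Esr1) was higher and 1 (Hsd11b1) lower in each comparison. Of 24 genes of FGF, IGF and related growth factors 4 were higher and 1 lower against the corpus, and 5 higher and 2 lower against the caput. Over all genes 2.74% were higher and 1.54% lower against the corpus, and 6.14% and 3.41% against the caput. Esr1, the estrogen receptor, had 137 CPM (128 to 146) in cauda, 27.7 CPM (20.6 to 36.6) in corpus and 34.0 CPM (21.1 to 52.0) in caput fibroblasts, against 32.9, 25.7 and 52.5 CPM in the other cells of these libraries. The cauda stood apart, and the other two regions did not differ beyond counting error. Fst, follistatin, which blocks activins, had 245 CPM in cauda, 51.6 CPM in corpus and 3.24 CPM (2 UMIs) in caput fibroblasts, a ratio of 4.76 (3.86 to 5.92) to the corpus and 75.8 (20.9 to 626) to the caput. Inhba, which encodes an activin subunit, was lower in cauda than in caput fibroblasts, at 41.2 against 204 CPM. Igfbp5 had 491 CPM in cauda, 107 CPM in corpus and 138 CPM in caput fibroblasts. Kdr, the VEGF receptor, had 57.8 CPM in cauda, 5.55 CPM in corpus and 37.2 CPM in caput fibroblasts. Cdh5 had 23.9, 30.0 and 47.0 CPM and Tek 21.3, 20.5 and 11.3 CPM in the same order, and the part of endothelial RNA in the Kdr values was not tested.

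Matrix genes passed the rule in both directions. Of 30 matrix glycoproteins, 3 were higher and 2 lower against the corpus, and 11 higher and 5 lower against the caput. Fn1, fibronectin, had 133 CPM in cauda and 13.0 CPM in caput fibroblasts, a ratio of 10.3 (5.20 to 23.9), and Spon1, a secreted adhesion protein, had 289.5 CPM in cauda, 84.9 CPM in corpus and 58.3 CPM in caput fibroblasts. Mgp, the inhibitor of calcification, had 3475 CPM in cauda and 10949 CPM in caput fibroblasts, and Apod, a lipid carrier, 679 CPM in cauda and 4810 CPM in caput fibroblasts. Cilp had 105 CPM in cauda and 1237 CPM in caput fibroblasts. Sfrp1, another Wnt binder, had 745 CPM in cauda and 2653 CPM in caput fibroblasts, and Sfrp4 went the other way at 77.9 and 8.10 CPM in the same order. Aspn, a leucine-rich proteoglycan, had 352 CPM in cauda and 73.8 CPM in corpus fibroblasts, a ratio of 4.76 (4 to 5.72), but did not pass the rule against the caput. Thinned, it was seen in 20.3% (18.4 to 22.4) of cauda, 6.10% (4.09 to 8.70) of corpus and 15.8% (10.4 to 22.6) of caput fibroblasts. Col6a5 had 2252 CPM in cauda, 2035 CPM in corpus and 526 CPM in caput fibroblasts.

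Of 26 adventitial genes with enough UMIs, 3 (Pi16, Pcolce2 and Has1) were higher and 0 lower against the corpus, with a median log2 ratio of 0.28, and against the caput 9 of 25 were higher and 0 lower, with a median of 0.84. Of those 9, which include Pi16 itself, Pcolce2, Gfpt2 and Adgrd1 also passed the rule as higher with Pi16 in the cauda. Ly6a, Ly6c1, Dpt, Scara5 and Has1 did not pass it, though all 23 measured ratios of the list were above 1 there. Scara5, a ferritin receptor, had 249.9 CPM in cauda and 35.6 CPM in caput fibroblasts, and Ly6c1 had 1047 and 181 CPM in the same order. Of the genes named against the corpus, Myoc had 34.4 CPM in cauda and no UMI in corpus fibroblasts, at least 20.7-fold higher than 3 UMIs there. Lower in the cauda than in the corpus were Hsd11b1, which activates glucocorticoid, with 25.0 CPM in cauda and 121 CPM in corpus fibroblasts, and Cyp1b1, which oxidises steroids and retinoids, with 79.0 and 278 CPM in the same order. Cxcl13, a B cell attractant, had 7.67 CPM in cauda and 112 CPM in corpus fibroblasts, with 73 of the 202 corpus UMIs in 1 cell. Slpi against the corpus and Wfdc18 against the caput had the lowest ratios, but 97 of 104 and 143 of 146 UMIs were in 1 corpus and 1 caput cell.

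Inflammatory and stress genes were higher in the cauda than in the caput. Of 19 chemokines and cytokines with enough UMIs, 9 were higher and 0 lower against the caput, and 4 of 20 were higher and 1 lower against the corpus. Il6 had 50.7 CPM in cauda, 79.3 CPM in corpus and 9.72 CPM in caput fibroblasts, against 9.83, 4.38 and 0.440 CPM in the other cells of these libraries. Ccl2 had 134, 129.8 and 8.10 CPM in fibroblasts of cauda, corpus and caput, but the other cauda cells held more of it, with 322, 43.5 and 11.2 CPM in the other cells. Ccl8 was far higher outside the fibroblasts of the cauda, at 1180 CPM, than in them, at 448 CPM. Of 39 dissociation genes, 16 were higher and 0 lower against the caput (median log2 ratio 0.90), and 3 higher and 0 lower against the corpus (median 0.38). The macrophage markers moved the same way, 8 of 9 past the rule in each comparison, and their part and that of dissociation in these values were not tested.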

How the data were processed

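Single cells of 3 libraries (1 each of cauda, corpus and caput, from wild-type mice of 56 days) were captured with the GEXSCOPE kit per the labels. The deposited matrix holds whole-number UMI counts of 24335 genes in 14845 cells, made by the authors; the submitters' processing notes name STAR 2.7.3a, UMI-tools and GRCm38.p6, with no role for each, and the cell filter, gene annotation and strand setting are not given in the sources used here. Library totals were 18341476 UMIs for the cauda, 21495211 for the corpus and 41500792 for the caput.

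Counts were summed over the cells of each class, scaled to CPM and compared as ratios with exact conditional 95% intervals. Levels carry exact Poisson and shares exact binomial (Clopper-Pearson) intervals. All intervals and the floor of 3 UMIs per class cover counting error only. For shares, each cell was thinned to 1000 UMIs (seed 1). The 12 genes with the largest ratio in each direction, among those not lower in the class than in the other cells of its library, were named, along with list members. The cells and gene lists were chosen with earlier results of these data known. Cell barcodes shared between libraries numbered 14 for cauda and corpus, 21 for cauda and caput and 14 for corpus and caput, and 0 of them were cauda fibroblasts. Python 3.11.15, numpy 2.4.6, scipy 1.17.1, pandas 2.3.3 and, for TMM factors, edgeR 4.0.16 were used.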

Additional observations from a re-analysis of the deposited data

Results flagged for a closer look

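In 4 of the genes ranked in the cauda, the log2 ratio of Pi16-positive over Pi16-negative fibroblasts had the opposite sign in another region. They were picked because the interval in that region left out a ratio of 1, and in none of them was this difference tested. Cpxm2, a carboxypeptidase-like secreted protein, had 1.41 in the corpus and -1.84 in the cauda. The corpus value rests on 22 UMIs in 6 of 151 Pi16-positive cells and 13 UMIs in 11 of 308 Pi16-negative cells. In the caput, Cnmd had 2.02 against -2.34 in the cauda, Wisp1 had 1.23 against -1.83 and Vit had 1.37 against -1.68. Wisp1 was seen there in 9 of 45 Pi16-positive and 11 of 107 Pi16-negative cells. In the corpus Cnmd had -2.05, Wisp1 -0.92 and Vit -1.33, on the side of the cauda. No gene past the size rule in the cauda passed it in the opposite direction in the corpus or caput. Each rests on 1 library per region.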

How the results depend on the processing

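No paired analysis was possible because each region has 1 library and no test was made. The share of cauda cells in the fibroblast class was 45.6% with at least 2000 UMIs per cell, 30.0% and 50.7% with matrix thresholds of 500 and 150, 36.7% with no UMI of the 4 excluded genes, 48.5% without cells over 20% mitochondrial UMIs, 16.2% (605 cells) without cells over 2 UMIs of other cell types and 41.0% without the 5% of members with the most UMIs. The Pi16-positive share of the cauda was 55.5% with at least 2000 UMIs, 52.0% and 42.2% with the thresholds of 500 and 150, 28.6% with at least 2 Pi16 UMIs, 25.3% thinned to 1000 UMIs and 14.9% thinned to 500 UMIs, a depth added after seeing the data. At the threshold of 500, without thinning, it was 31.3% of 217 corpus and 42.1% of 38 caput fibroblasts.

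For Pi16-positive over Pi16-negative cells, other-cell filtering gave 34 higher and 22 lower genes, 27 and 13 of them shared with the main result, and thinning gave 16 and 16. Lower genes numbered 116 with at least 2 Pi16 UMIs, 130 with Pi16-negative cells weighted to the depth of positive ones and 124 with at least 20 UMIs; a ratio of 4 gave 6 higher and 4 lower. Against the corpus, 129 genes were higher at the threshold of 500, 59 with other-cell filtering and 126 among Pi16-negative cells, with 60 higher and 41 lower after thinning, 299 and 228 with at least 20 UMIs and 53 and 41 at a ratio of 4. Against the caput there were 233 higher and 134 lower at 500, 213 and 120 with other-cell filtering, 161 and 82 after thinning, 139 and 94 at a ratio of 4, and 414 lower with at least 20 UMIs.

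Of 3816 gene values under 14 alternatives, 3092 stayed within the 95% interval of the reported value, 718 left it without changing direction and 6 turned. Cenpf turned to -1.27 with other-cell filtering and -0.88 without the 5% deepest members, Prc1 to -0.39 without them (both Pi16 contrast), Csf1r to -0.13 (cauda over corpus, other-cell filtering), Rbp4 to 0.65 (cauda over caput, thinned) and Fgf18 to -0.10 (cauda over caput, Pi16-negative cells). The cause was not tested. A further 16 values of 11 genes, where a class had no UMI, were left out of these counts. With the floor in place of the empty class, each lay on the opposite side from the reported value. Values with an empty class that kept their side were counted, so 6 may understate the number that turned. Depth limits the caput, with 152 fibroblasts and 617516 UMIs.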

Other observations

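Of 14 contractile genes with enough UMIs, 1 (S100a4) was higher and 4 (Acta2, Actg2, Myl9 and Tpm1) were lower in cauda than in caput fibroblasts, against 6.14% higher and 3.41% lower over all 6825 genes. Acta2, smooth muscle actin, had 58.2 CPM in cauda and 164 CPM in caput fibroblasts, and Actg2, an actin of visceral muscle, had 6.82 and 332 CPM in the same order. The 9 mural cell markers summed to 77.9 CPM in cauda and 125 CPM in caput fibroblasts, and their part in these values was not tested. H19, an imprinted noncoding RNA, had 296 of the 7038630 UMIs of cauda and 1 of the 617516 UMIs of caput fibroblasts, so the caput level rests on 1 UMI.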
